A study of Mus musculus with 11 samples.

Results

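The genes described here are the subunits, activators, inhibitor and assembly chaperones of the mouse proteasome, taken as every row of the count table whose symbol is Psm, a letter from a to g and a number. The rule found 48 of the 55291 rows, and 46 of them passed the filter on low counts that left 15722 genes for testing. The 2 that did not pass were Psmb8 and Psmb11. RNA was sequenced from E14 mouse embryonic stem cells grown without feeders in medium with serum, LIF, a GSK3 inhibitor and a MEK inhibitor. In 2 separately targeted lines, named 10E and 11D in the table, the FACT histone chaperone subunit SPT16 was fused at its end to V5 and an auxin-inducible degron, a tag that marks its protein for destruction once auxin (indole-3-acetic acid, IAA) is added. The tagged IAA group (1 library of 10E and 2 of 11D) received 500 nM IAA for 24 hours, and the tagged EtOH group (2 libraries of each line) received an equal volume of ethanol. The untagged IAA group (3 libraries) was E14 without the degron tag under the same hormone. All of these groups, with or without IAA, were held at 0.1% ethanol, and treatment followed 48 hours of growth. The title of the series poses the question of FACT in the expression of pluripotency factors, and the proteasome genes are described here across the same groups. The sample titles call each tagged line a clone. How TIR1 was supplied and whether replicates were separate cultures are not given in the labels, and p-values cover only how these libraries vary, which may be technical.

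The proteasome degrades proteins that carry ubiquitin chains. Its 20S core is a barrel of outer alpha rings and inner beta rings, in which PSMB5, PSMB6 and PSMB7 hold the proteolytic sites, and its 19S cap recognises ubiquitin, removes it and threads the substrate through a ring of ATPases. Interferon-treated and immune cells replace the catalytic subunits by PSMB8, PSMB9 and PSMB10 to form the immunoproteasome, and stem cells depend on proteasome activity for protein turnover. In many mammalian cells the transcription factor NRF1, encoded by Nfe2l1, raises the subunit genes together when proteasome activity is short.

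Coordinates are from GENCODE M21 on GRCm38 (mm10). Libraries held 3100127 to 13510163 counts, and the members took 0.508% to 0.554% of them in tagged IAA, 0.472% to 0.561% in tagged EtOH and 0.552% to 0.575% in untagged IAA libraries, so these shares overlapped between tagged IAA and tagged EtOH. The first principal component of all genes, 65.2% of the variance, set tagged IAA libraries (79.8 to 83.8) apart from all others (-37.3 to -29.9). The 8 stem cell markers summed to 2937 to 3228 CPM (read counts per 1000000 counts, with libraries scaled by TMM factors) in tagged IAA, 7185 to 8692 in tagged EtOH and 7509 to 8178 in untagged IAA libraries, with 0 of 8 at 0 in any library. Markers of fibroblasts summed to 4.36 to 5.52, 3.11 to 4.63 and 1.85 to 3.68 CPM in those groups, with 1 to 4 of 7 at 0. Markers of immune cells, which hold immunoproteasomes at rest, summed to 5.58 to 7.26, 2.48 to 6.09 and 2.31 to 3.51 CPM, with 1 to 3 of 6 at 0. Supt16, the tagged gene, stood at 284, 258 and 293 CPM in tagged IAA, at 362 to 414 CPM in tagged EtOH and at 534 to 572 CPM in untagged IAA libraries. SPT16 protein, the target of the degron, was not measured, and this transcript checks no label.

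After IAA, 10 of the 14 constitutive core genes and 8 of the 17 structural 19S genes fell in the tagged lines with TMM scaling. With library totals 2 of each fell. The immunoproteasome gene Psmb9 rose most of the tested members, but it passed the filter on low counts only through tagged IAA libraries. Of the 46 tested members, 21 fell and 5 rose at an edgeR false discovery rate (FDR) under 0.05, against 29.3% of all tested genes lower and 30.2% higher (59.5% in either direction). The median log2 fold change of the members was -0.25 with TMM scaling and 0.05 with library totals alone, a scaling that moved the median of all genes from 0.01 to 0.30 and gave 7 lower and 14 higher members. The share of lower members therefore depends on the scaling, and changes below are relative to the TMM centre. Ratios of pooled counts use library totals instead. All 3 IAA libraries lay below all 4 EtOH libraries for 19 tested members (25.7% of all genes) and above them for 4 (28.9% of all genes), and the groups overlapped for 23. In bulk RNA, fewer cells with a transcript and less of it per cell cannot be told apart.

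**Figure D1:**
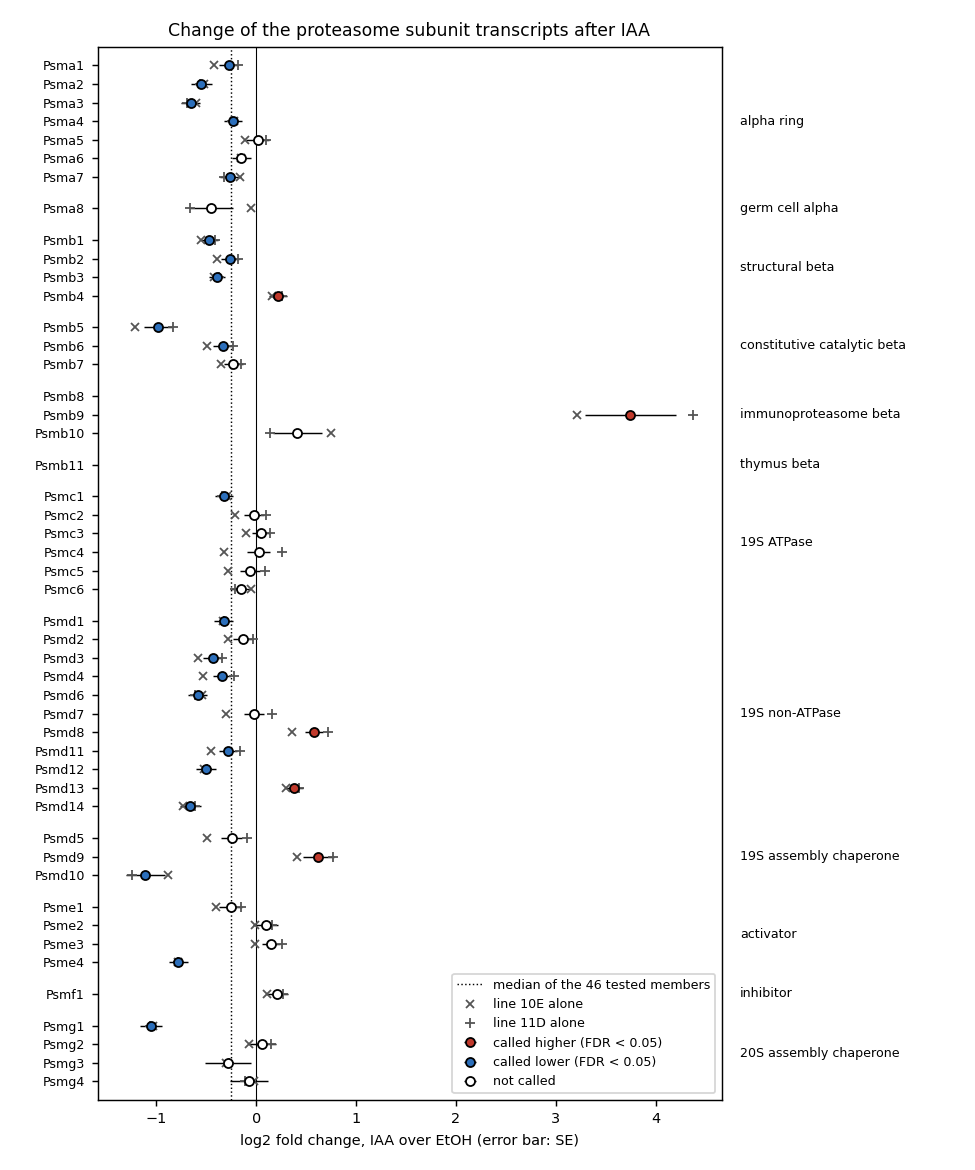
Log2 fold change of each tested member, IAA over EtOH in the tagged lines (x axis, TMM scaling), with the standard error as a bar and the members grouped by role (y axis). The 21 lower members lie left of 0, Psmb9 lies far to the right at 3.74, and the dotted line marks the median of -0.25, which was 0.05 with library totals.

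Of the 46 tested members, 30 stood below 0 in both tagged lines, 7 above 0 in both and 9 on opposite sides (TMM scaling). The same split over all tested genes was not counted, so these counts show no trait particular to the members. The calls that held under all 16 alternative settings were those of Psmd14, Psme4, Psma3, Psmd6, Psmb5, Psmg1 and Psmd10, which fell, and of Psmb9, Psmd8, Psmd9 and Psmd13, which rose. The lower calls of Psma4 and Psma7 and the higher call of Psmb4 were less stable, since Psma4 and Psma7 kept theirs in 4 of the 16 settings each and Psmb4 kept its call in 6.

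The sequences upstream of 6 members are shown because the known regulators of proteasome genes bind close to their starts. They are the 4 members that fell most and 2 of those that rose, Psmd8 and Psmd9, chosen after their values were seen. That of Psmb9, which changed most among the tested members, is not shown because annotated exons of Psmb9 cover its whole window. The windows come from RefSeq (GRCm38.p6, the build of the deposited mm10 coordinates), end at or before the annotated start, and were trimmed where another exon began. They are Psmd10 at chrX:140956729-140956906 (minus strand), Psmg1 at chr16:95990961-95991210 (minus), Psmb5 at chr14:54618023-54618245 (minus), Psme4 at chr11:30771525-30771725 (plus), Psmd8 at chr7:29180702-29180923 (minus) and Psmd9 at chr5:123227940-123228189 (plus). The RefSeq start of Psmd9 lies inside the GENCODE gene. Capitals mark the letters of a searched motif, read 5′ to 3′ on the gene's strand.
Psmd10: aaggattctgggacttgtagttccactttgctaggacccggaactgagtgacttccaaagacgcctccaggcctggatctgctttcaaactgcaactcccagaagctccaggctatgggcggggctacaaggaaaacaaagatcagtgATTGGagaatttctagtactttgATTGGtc
Psmg1: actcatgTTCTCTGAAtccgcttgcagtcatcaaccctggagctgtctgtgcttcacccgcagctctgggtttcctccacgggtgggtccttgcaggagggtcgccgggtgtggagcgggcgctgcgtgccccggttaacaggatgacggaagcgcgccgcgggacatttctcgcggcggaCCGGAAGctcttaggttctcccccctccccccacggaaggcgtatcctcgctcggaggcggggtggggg
Psmb5: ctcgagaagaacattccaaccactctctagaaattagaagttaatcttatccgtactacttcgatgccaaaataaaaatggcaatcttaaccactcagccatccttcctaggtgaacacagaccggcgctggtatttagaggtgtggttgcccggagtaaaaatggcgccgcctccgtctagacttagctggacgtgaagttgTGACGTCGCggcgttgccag
Psme4: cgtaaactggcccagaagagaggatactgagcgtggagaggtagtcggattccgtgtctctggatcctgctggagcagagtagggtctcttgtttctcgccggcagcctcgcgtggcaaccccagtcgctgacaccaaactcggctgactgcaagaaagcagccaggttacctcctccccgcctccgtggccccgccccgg
Psmd8: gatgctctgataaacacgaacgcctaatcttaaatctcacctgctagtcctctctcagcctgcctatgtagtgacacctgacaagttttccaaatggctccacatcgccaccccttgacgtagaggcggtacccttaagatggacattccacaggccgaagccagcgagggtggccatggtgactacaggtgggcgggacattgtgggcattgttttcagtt
Psmd9: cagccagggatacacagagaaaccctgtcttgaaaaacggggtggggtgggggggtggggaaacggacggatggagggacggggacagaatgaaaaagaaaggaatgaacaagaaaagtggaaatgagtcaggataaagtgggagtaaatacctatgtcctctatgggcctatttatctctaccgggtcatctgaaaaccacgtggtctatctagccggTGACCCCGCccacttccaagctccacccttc
Psmd10 holds the CCAAT box on the other strand (ATTGG) in 2 places, Psmg1 holds the ETS core and the letters of an interferon site, and Psmb5 and Psmd9 each hold the core of the antioxidant response element, TGACGTCGC and TGACCCCGC. Psmd8 holds none of the 4 motifs. Psme4 holds none that lies whole in the printed stretch, and its ETS core runs past the end into bases trimmed as exon.

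Motifs were counted on both strands of 250 bases upstream of the start, in the 40 members and 27025 genes of the RefSeq table. The antioxidant response element core TGACNNNGC, the kind of site that NRF1 and its relatives bind, was in 12.5% of member promoters, against 10.1% of all promoters and 12% of those of tested genes. CCAAT was in 35% of member promoters, against 34.5% of all and 37.1% of tested ones. The ETS core CCGGAAG, common at housekeeping promoters, was in 11 of 40 members (27.5%), against 7.05% of all and 13.8% of tested promoters. It was in 7 of 18 members that fell, 0 of 5 that rose and 4 of 15 that were not called. The interferon site TTCNNNGAA was in 5% of members, against 7.18% of all and 5.79% of tested promoters. A match is a description of letters only.

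In the 20S core, the 14 constitutive subunits had a median log2 fold change of -0.27, with 10 lower, 1 higher and 3 not called, while with library totals their median was 0.03, with 2 lower and 2 higher. Their summed level was 1225 to 1353 CPM in tagged IAA, against 1493 to 1681 CPM in tagged EtOH and 1537 to 1611 CPM in untagged IAA libraries, with no overlap between tagged IAA and either other group. Among the alpha ring genes, whose products gate the barrel, 5 of 7 fell and Psma5 and Psma6 did not pass, while with library totals 1 fell and 1 rose. Psma3 (chromosome 12, positions 70974621 to 70996347, plus strand) fell most, with 67.1 CPM in 10E IAA and 61.9 and 67.9 CPM in 11D IAA, against 92.5 and 111 CPM in 10E EtOH and 101 and 108 CPM in 11D EtOH. Every IAA library lay below every EtOH library (log2 fold change -0.66, SE 0.10, edgeR FDR 5.4e-05). Psma2 followed at -0.55 (SE 0.11), then Psma1 at -0.28, Psma7 at -0.26 and Psma4 at -0.23. Psma6 stood at -0.15 and Psma5 at 0.02. Exons of Psma4 overlap those of AY074887 on the other strand and exons of Psma5 those of 1700010K24Rik.

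Psma8, which in testis replaces PSMA7 in the core of germ cells, had a low level. It stood at 8.25 CPM in 10E IAA and 7.55 and 9.64 CPM in 11D IAA, against 8.29 and 8.86 CPM in 10E EtOH, 10.5 and 16.3 CPM in 11D EtOH and 14.5, 14.9 and 14.3 CPM in untagged IAA libraries. The tagged groups overlapped, and the change did not pass (-0.45, SE 0.22, edgeR FDR 0.0854). Against untagged cells it was lower (-0.77, SE 0.20, edgeR FDR 0.00534), and every tagged IAA library lay below every untagged one.

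Of the beta subunits without a proteolytic site, Psmb1, Psmb2 and Psmb3 fell and Psmb4 rose, while with library totals 0 fell and 1 rose by edgeR. Psmb1 (chromosome 17, positions 15475021 to 15499751, minus strand) stood at 98.8 CPM in 10E IAA and 108 and 117 CPM in 11D IAA, against 143 to 150 CPM in all EtOH libraries (-0.47, SE 0.08, edgeR FDR 0.000261). Psmb3 stood at -0.39 (SE 0.08) and Psmb2 at -0.27 (SE 0.09). Psmb4 (chromosome 3, positions 94884093 to 94886961, minus strand) had 161 CPM in 10E IAA and 134 and 150.5 CPM in 11D IAA, against 139 and 149 CPM in 10E EtOH and 129 and 111 CPM in 11D EtOH. Its groups overlapped, and its fold change of 0.22 (SE 0.09) had an edgeR FDR of 0.0473.

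The 3 constitutive catalytic genes differed in the size of their change. Psmb5 (chromosome 14, positions 54614119 to 54618022, minus strand), which encodes the chymotrypsin-like subunit that bortezomib binds, had 18.7 CPM in 10E IAA and 18.008 and 16.2 CPM in 11D IAA, against 42.2 and 44.7 CPM in 10E EtOH and 33.2 and 27.6 CPM in 11D EtOH. Its IAA values lay together and below all EtOH values, and in untagged IAA libraries it stood at 36.5, 33.3 and 33.0 CPM. Psmb5 fell by 0.98 on the log2 scale (SE 0.14, edgeR FDR 4.59e-05). Its only exon overlap is with Mir686 on the same strand.
Psmb6 (chromosome 11, positions 70525367 to 70527858, plus strand), the caspase-like subunit, had 124 CPM in 10E IAA and 110.4 and 122 CPM in 11D IAA, against 185 and 164 CPM in 10E EtOH and 132 and 140.0 CPM in 11D EtOH. All IAA values lay below all EtOH values (-0.34, SE 0.10, edgeR FDR 0.00772), while the 115, 136 and 144 CPM of untagged IAA libraries overlapped them. Psmb7 (chromosome 2, positions 38588036 to 38644087, minus strand), the trypsin-like subunit, had 131 CPM in 10E IAA and 117 and 126 CPM in 11D IAA, against 178 and 156 CPM in 10E EtOH and 126 and 142 CPM in 11D EtOH. Its groups overlapped and it did not pass (-0.23, SE 0.10, edgeR FDR 0.0514), and its exons overlap those of Nek6 on the other strand.

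**Figure D2:**
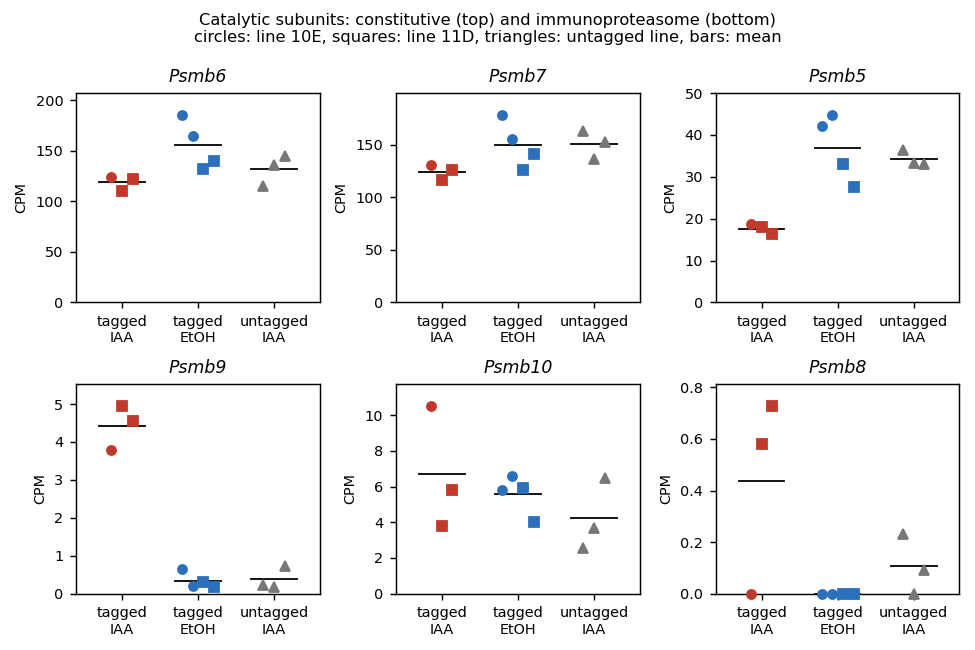
CPM (y axis, from 0) of the constitutive catalytic genes (top) and their immunoproteasome counterparts (bottom) in each library, with circles for 10E, squares for 11D, triangles for the untagged line and bars for group means. The 3 tagged IAA values of Psmb5 (16.2 to 18.7) lie below and those of Psmb9 (3.79 to 4.94) above every other library.

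The immunoproteasome genes sat far lower. Psmb9 (chromosome 17, positions 34181987 to 34187764, minus strand) had 17 counts in 10E IAA and 17 and 69 in 11D IAA, against 5 and 2 counts in 10E EtOH and 1 and 2 in 11D EtOH. In CPM these were 3.79, 4.94 and 4.56 in tagged IAA, against 0.648, 0.197, 0.310 and 0.178 in tagged EtOH and 0.231, 0.167 and 0.740 in untagged IAA libraries. Each tagged IAA library lay above every other library. Psmb9 rose by 3.74 (SE 0.45, edgeR FDR 1.11e-05). It passed the filter on low counts only through the tagged IAA libraries, where it was high, so the FDR was not independent of that filter. The ratio of its pooled counts, by library totals, was 17.5 (exact 95% interval 9.12 to 37.5, counting error only). At its mean of 1.21 CPM per kilobase of exon in tagged IAA, Psmb9 stayed well under Psmb6, the subunit it replaces, which averaged 63.6. The 2 genes Psmb9 and Tap1 lie head to head on opposite strands with 212 bases of exon in common, so Psmb9 is uncertain: Tap1 itself stood at 36.8, 36.9 and 43.6 CPM in tagged IAA, against 3.45 to 6.82 CPM in tagged EtOH libraries, and its part in the reads of Psmb9 was not tested. Immune markers summed to 5.58 to 7.26 CPM in tagged IAA, against 2.48 to 6.09 CPM in tagged EtOH, beside this rise. Of the 6, Lyz2 was at 0 in all libraries and Ptprc was at 0, 0.290 and 0.396 CPM in tagged IAA and at 0 in all others. Itgam stood at 0.669 to 3.19 CPM in tagged IAA, against 0.197 to 1.07 CPM in tagged EtOH, and Cd74 at 2.03 to 2.77 CPM, against 1.24 to 2.20 CPM. Cd3e overlapped between those groups, and the part of such cells in the result was not tested.

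Psmb8 (chromosome 17, positions 34197721 to 34201454, plus strand), which takes the place of PSMB5, had 0 counts in 10E IAA and 2 and 11 in 11D IAA, against 0 in all 4 EtOH libraries and 1, 0 and 1 in untagged IAA libraries. Pooled and scaled by library totals, it was at least 7.35-fold higher in tagged IAA than in tagged EtOH, against a floor of 3 counts over the EtOH group. This rests on 11D IAA replicate 2, which held 11 of the 13 counts, and the 2 counts left without it lie under the floor and allow no fold. Exons of Psmb8 also overlap those of Gm20496 on the other strand, over 498 bases. Psmb10 (chromosome 8, positions 105935735 to 105938444, minus strand), which takes the place of PSMB7, had 10.5 CPM in 10E IAA and 3.78 and 5.81 CPM in 11D IAA, against 5.83 and 6.60 CPM in 10E EtOH and 5.89 and 4.001 CPM in 11D EtOH. The groups overlapped and the fold change of 0.41 (SE 0.25) did not pass (edgeR FDR 0.165). Psmb11 (chromosome 14, positions 54621433 to 54629556, plus strand), a subunit of thymic cortical epithelium, had 4 counts in 10E IAA and 2 and 18 in 11D IAA, against 0, 2, 0 and 0 in tagged EtOH and 0 in untagged IAA libraries. The ratio of its pooled counts, by library totals, was 20.3 (exact 95% interval 5.05 to 178), with 18 of the 24 tagged IAA counts in 11D IAA replicate 2. At 0.185 CPM per kilobase in tagged IAA, Psmb11 was among the lowest members.

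The 17 structural subunits of the 19S particle were described as ATPases and non-ATPases. Of the 6 ATPase genes, whose products form the unfolding ring, Psmc1 fell (-0.32, SE 0.09, edgeR FDR 0.00566) and 5 did not pass, with fold changes between -0.15 and 0.04. Psmc1 (chromosome 12, positions 100110154 to 100123405, plus strand) had 99.5 CPM in 10E IAA and 92.1 and 103 CPM in 11D IAA, against 115 to 129 CPM in EtOH libraries, which did not overlap. With library totals those 5 all stood above 0 and 3 of the 6 were called higher. Psmc3 shares exon bases with Slc39a13 on the other strand.

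Of the 11 non-ATPase genes of the 19S cap, 7 fell and 2 rose (29.3% and 30.2% of all tested genes), with Psmd2 and Psmd7 not called. With library totals 2 fell and 3 rose. Psmd14 (chromosome 2, positions 61711694 to 61800376, plus strand) encodes the deubiquitinase that cuts ubiquitin chains off the substrate. It had 61.8 CPM in 10E IAA and 67.7 and 69.2 CPM in 11D IAA, against 108 and 97.6 CPM in 10E EtOH and 92.1 and 115 CPM in 11D EtOH. No library of the groups overlapped (-0.66, SE 0.10, edgeR FDR 0.000103). Psmd6 (chromosome 14, positions 14112174 to 14120984, minus strand), a lid subunit, had 55.8, 54.3 and 54.3 CPM in tagged IAA, against 73.9 to 88.6 CPM in tagged EtOH (-0.59, SE 0.10). The lid genes Psmd12 (-0.51), Psmd3 (-0.44) and Psmd11 (-0.28) also fell, as did Psmd4 (-0.34), which encodes a ubiquitin receptor, and Psmd1 (-0.33), a large scaffold of the base. Psmd2, the other scaffold, stood at -0.13 and Psmd7, the partner of PSMD14, at -0.02.

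The lid genes Psmd8 and Psmd13 rose. Psmd8 (chromosome 7, positions 29174188 to 29180701, minus strand), the counterpart of yeast Rpn12, had 213 CPM in 10E IAA and 243 and 244 CPM in 11D IAA, against 163 and 169 CPM in 10E EtOH and 148 and 146 CPM in 11D EtOH. Its IAA libraries were all above its EtOH libraries (0.58, SE 0.09, edgeR FDR 0.0001). Psmd13 (chromosome 7, positions 140881968 to 140898643, plus strand), known in yeast as Rpn9, had 129 CPM in 10E IAA and 119 and 139 CPM in 11D IAA, against 103 and 107 CPM in 10E EtOH and 88.0 and 102 CPM in 11D EtOH. These groups did not overlap (0.38, SE 0.09, edgeR FDR 0.00322). Exons of Psmd13 overlap those of Sirt3 on the other strand, exons of Psmd1 those of Htr2b and exons of Psmd3 those of Gm12356.

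The chaperones that build the 19S base went in opposite directions. Psmd10 (chromosome X, positions 140948429 to 140956728, minus strand), which encodes gankyrin, had 6.69 CPM in 10E IAA and 4.65 and 5.08 CPM in 11D IAA, against 12.6 and 12.2 CPM in 10E EtOH and 10.2 and 12.5 CPM in 11D EtOH. It fell by 1.11 on the log2 scale (SE 0.20, edgeR FDR 0.000261), the largest fall among the 46 tested members with TMM scaling. Psmd9 (chromosome 5, positions 123169413 to 123250131, plus strand) had 33.7 CPM in 10E IAA and 28.5 and 30.4 CPM in 11D IAA, against 29.0 and 21.9 CPM in 10E EtOH and 18.3 and 16.5 CPM in 11D EtOH. The EtOH library with 29.0 CPM overlapped the IAA range, and the rise was 0.62 (SE 0.15, edgeR FDR 0.00294). Psmd5, the third of the set, did not pass (-0.25, SE 0.10, edgeR FDR 0.0523). Exons of Psmd9 overlap those of Gm26745 on the other strand.

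Among the 4 chaperones of 20S assembly, Psmg1 fell and the others did not pass. Psmg1 (chromosome 16, positions 95979933 to 95990960, minus strand), which starts alpha ring formation with PSMG2, had 25.4 CPM in 10E IAA and 22.1 and 24.3 CPM in 11D IAA, against 53.1 and 51.0 CPM in 10E EtOH and 46.5 and 50.5 CPM in 11D EtOH. The groups lay far apart (-1.06, SE 0.11, edgeR FDR 3.44e-06). Its partner Psmg2 stood at 0.06 (SE 0.14) with 19.9, 22.4 and 26.8 CPM in tagged IAA, inside a range that held the 20.3 to 22.6 CPM of tagged EtOH. Psmg3 stood at -0.28 (SE 0.23) and Psmg4 at -0.08 (SE 0.19).

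Of the activators, which open the core without a 19S cap, Psme4 fell and Psme1, Psme2 and Psme3 did not pass. Psme4 (chromosome 11, positions 30771726 to 30880361, plus strand) encodes PA200, a nuclear activator. It had 377 CPM in 10E IAA and 419 and 445 CPM in 11D IAA, against 592 and 703 CPM in 10E EtOH and 685 and 791 CPM in 11D EtOH. All IAA values lay below all EtOH values (-0.78, SE 0.09, edgeR FDR 1.09e-05), and both lines gave -0.78.
Psme1 (chromosome 14, positions 55578123 to 55581529, plus strand), a PA28 subunit that interferon induces, had 38.1 CPM in 10E IAA and 28.8 and 34.1 CPM in 11D IAA, against 49.2 and 51.7 CPM in 10E EtOH and 35.0 and 35.3 CPM in 11D EtOH. The groups overlapped (-0.25, SE 0.12, edgeR FDR 0.072), and its exons overlap those of Emc9 on the other strand. Psme2 (chromosome 14, positions 55587441 to 55591113, minus strand), the other interferon-induced PA28 subunit, had 35.2 CPM in 10E IAA and 29.3 and 36.6 CPM in 11D IAA, against 31.9 and 39.0 CPM in 10E EtOH and 29.8 and 29.7 CPM in 11D EtOH. It overlapped as well (0.09, SE 0.13, edgeR FDR 0.546).
Psme3 (chromosome 11, positions 101316213 to 101323537, plus strand), the nuclear PA28 gamma, had 209 CPM in 10E IAA and 213 and 211 CPM in 11D IAA, against 194 and 228 CPM in 10E EtOH and 172 and 181 CPM in 11D EtOH. The 228 CPM of 10E EtOH replicate 2 exceeded all IAA libraries (0.15, SE 0.09, edgeR FDR 0.17). Psmf1 (chromosome 2, positions 151715812 to 151744186, minus strand), which encodes the inhibitor PI31, had 40.6 CPM in 10E IAA and 42.1 and 39.0 CPM in 11D IAA, against 38.4 and 36.8 CPM in 10E EtOH and 32.5 and 33.7 CPM in 11D EtOH. Its IAA libraries all lay above its EtOH libraries, by 0.21 on the log2 scale (SE 0.11), and the test did not pass (edgeR FDR 0.122).

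**Figure D3:**
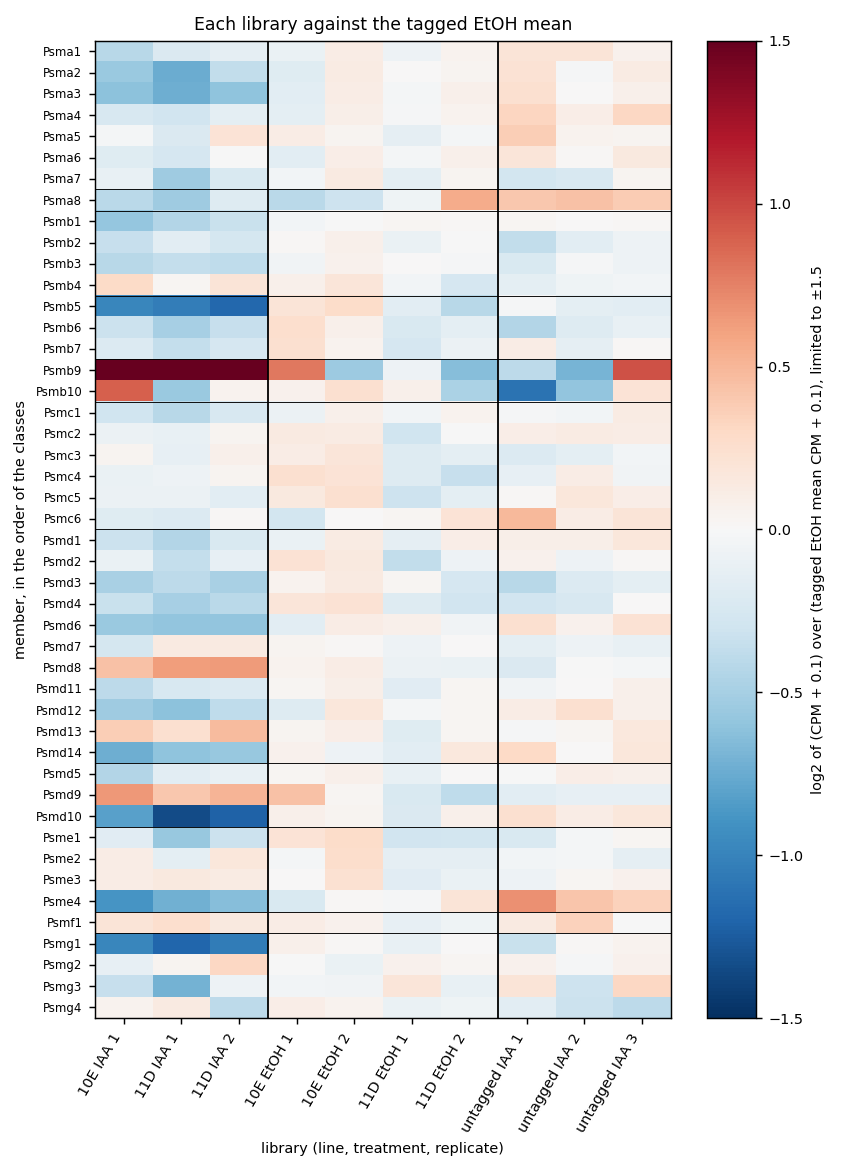
Log2 of CPM plus 0.1 in each library over the tagged EtOH mean (colour, limited to ±1.5; TMM scaling) for the 46 tested members, in the order of the classes (y axis), with tagged IAA libraries at left, tagged EtOH in the middle and untagged IAA at right (x axis). Psmb5, Psmd10, Psme4 and Psmg1 are blue and Psmb9 and Psmd8 red in all 3 tagged IAA libraries.

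Because the subunits of the core are needed in equal numbers, their transcript levels were also set side by side per kilobase of exon. The mean over libraries placed Psma3 at 16.9 CPM per kilobase and Psma6 at 90.0 in tagged IAA, against 26.5 and 99.1 in tagged EtOH and 28.6 and 108 in untagged IAA cells. Within single libraries, the highest constitutive core subunit stood 5.07 to 5.68 times above the lowest in tagged IAA, 3.71 to 4.16 times in tagged EtOH and 3.94 to 5.09 times in untagged IAA. By the longest transcript instead, these ratios were 5.71 to 7.04, 3.86 to 5.89 and 3.29 to 4.07. The standard deviation of the 14 levels on the log2 scale was 0.791 to 0.815 in tagged IAA, 0.619 to 0.689 in tagged EtOH and 0.579 to 0.627 in untagged IAA libraries. The tagged IAA libraries thus had the widest spread by this measure, which does not depend on library scaling and was not tested. Psmb5 moved with it, at 0.469 to 0.585 times the core median in tagged IAA, 0.703 to 1.02 times in tagged EtOH and 0.776 to 0.831 times in untagged IAA.

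**Figure D4:**
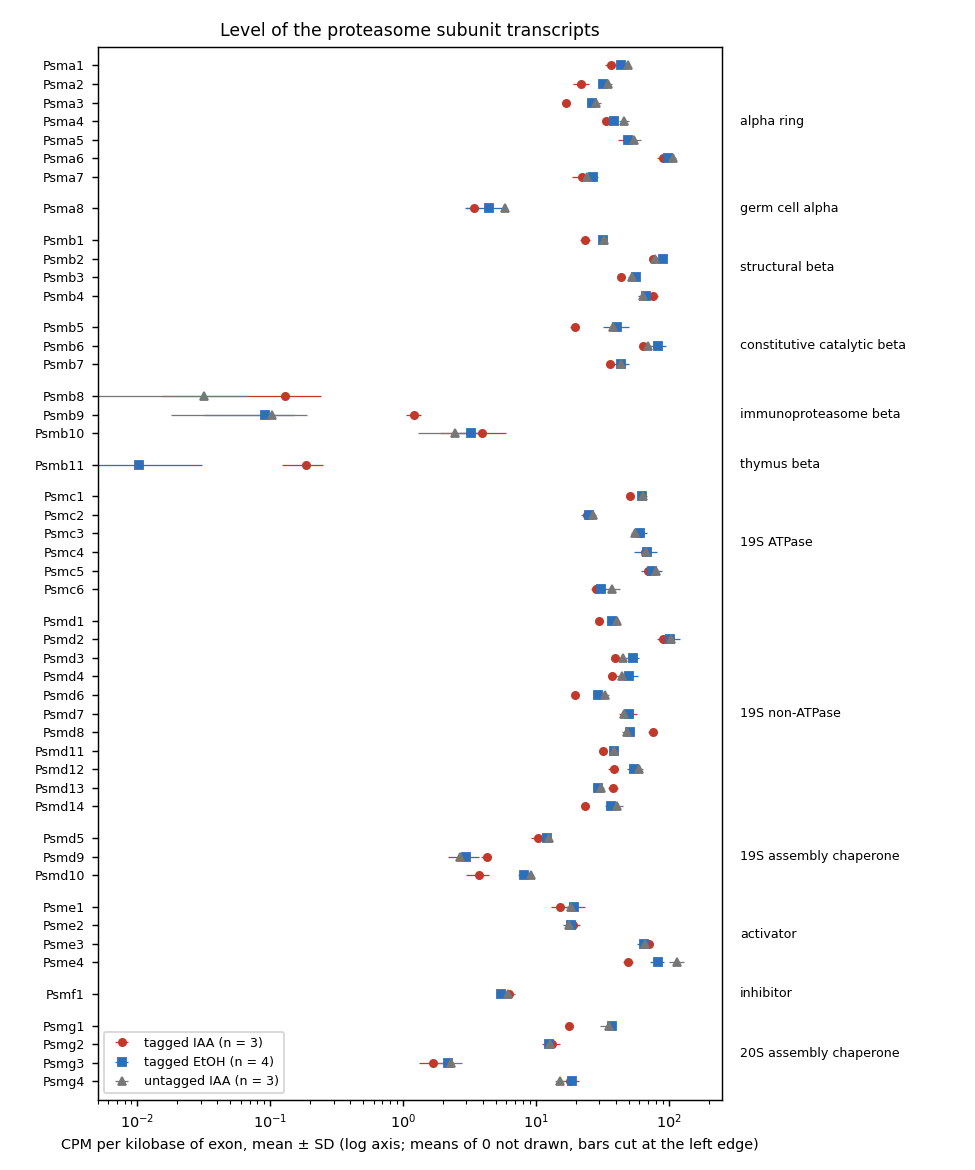
Mean ± SD of CPM per kilobase of exon (log x axis) for each member by role (y axis), in tagged IAA (circles, n = 3), tagged EtOH (squares, n = 4) and untagged IAA (triangles, n = 3); a mean of 0 is not drawn and bars stop at the left edge. Psmb9 lies far left of the constitutive subunits in all 3 groups. So do Psmb8, which has no point in tagged EtOH, and Psmb11, which has none in untagged IAA, where they are drawn. Psmd2 averages 90.5, 103 and 103.

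Across all members the order of levels per kilobase ran over several orders of magnitude. In tagged EtOH cells Psmd2 was highest at 103, followed by Psma6 at 99.1, Psmb2 at 91.2, Psmb6 at 83.0 and Psme4 at 82.6 CPM per kilobase, neighbours that differed by less than the larger of their SDs. The lowest detected members there were Psmb11 at 0.0103 and Psmb9 at 0.0910, then Psmg3 at 2.16, Psmd9 at 2.95 and Psmb10 at 3.27, while Psmb8 had no count. Chaperones (2.16 to 37.4) lay mostly below the constitutive core subunits (26.5 to 99.1) in those cells. The order depended on the length used. By the longest transcript, Psmb6 was highest in tagged EtOH at 161, then Psmd2 at 139, Psmb2 at 128 and Psma6 at 117. Psmd9 stood at 8.13 by that length, above Psmb10 at 4.26 and Psma8 at 5.73.

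The tagged lines, both made in E14 with the same tag, were compared with each other next. In 10E, 18 members fell and 2 rose (of all tested genes 19.1% lower, 19.5% higher and 38.6% in either direction), with a median of -0.30. The lower count was 8 without 10E EtOH replicate 2 and 11 with DESeq2, and library totals gave 3 lower and 6 higher. In 11D, 15 fell and 4 rose (24.5%, 24.7% and 49.2% of all tested genes), with a median of -0.17. Here the lower count was 8 without 11D IAA replicate 1, 2 rose without 11D IAA replicate 2, and library totals gave 6 lower and 12 higher. With library totals these medians were 0.03 and 0.10. The 10E values rest on 1 IAA library, which the model takes to vary like the other groups. The line by treatment interaction, 10E minus 11D, called 0 members in either direction by edgeR and 0 by DESeq2, with 4 members at an unadjusted p under 0.05 by edgeR (8.7%, against 4.92% of all tested genes) and 0% of all genes called. Those 4 were Psmc4 (-0.58, SE 0.17), Psmd7 (-0.46), Psmd5 (-0.40) and Psmd8 (-0.36), each with an edgeR FDR of 0.934.

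In EtOH, 2 members were higher in 10E than in 11D (1.2% of all genes higher, 1.92% lower, 3.12% either way) and 0 were lower by edgeR, also 0 by DESeq2. At an unadjusted p under 0.05 edgeR had 14 members (30.4%, against 19.4% of all tested genes), of which Psma8 alone was lower. Psmc4 (chromosome 7, positions 28041707 to 28050101, minus strand), an ATPase gene, had 176 and 171 CPM in 10E EtOH, against 129 and 116 CPM in 11D EtOH (0.51, edgeR FDR 0.029). Psmd4 (chromosome 3, positions 95032694 to 95042614, minus strand) had 160.0 and 164 CPM in 10E EtOH, against 123 and 115 CPM in 11D EtOH (0.45, edgeR FDR 0.0389). The lines did not overlap for either gene. After IAA the 3 tagged libraries of Psmc4 held 139, 140.3 and 152 CPM and those of Psmd4 held 112, 99.6 and 106 CPM. Both calls between the lines ended when 10E EtOH replicate 1 or 2, 11D EtOH replicate 2 or either 11D IAA library was left out.

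The comparison with the untagged line, in which both sides had IAA, shares the tagged IAA libraries with the comparison above. It called 21 members lower and 5 higher (28.9% and 29% of all tested genes, 57.9% either way), with a median of -0.23, or 0.03 with library totals. Psme4 was lowest of those called, at -1.27 (SE 0.12, edgeR FDR 1.13e-06), with 377, 419 and 445 CPM in tagged IAA, against 1115, 927 and 879 CPM in untagged IAA libraries. Psmd10 stood at -1.22 (SE 0.19) with 14.1, 12.9 and 13.4 CPM in untagged IAA, and Psmg1 at -0.97 (SE 0.13) with 39.9, 50.9 and 52.1 CPM there. The highest of those called were Psmb9 at 3.15 (SE 0.50), Psmd9 at 0.70 (SE 0.15) with 19.2, 19.6 and 19.6 CPM in untagged IAA, and Psmd8 at 0.62 (SE 0.09) with 135, 155 and 153 CPM there. The tagged IAA libraries lay on one side of all untagged libraries for each of these 6 genes, which were picked as the most extreme calls. The share of all genes that did so was not counted.

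Tagged EtOH cells, which received no IAA, differed little from untagged IAA cells in these genes. With edgeR 1 member was lower and 0 were higher (2.27% and 1.27% of all tested genes, 3.54% either way), 6 members had an unadjusted p under 0.05 (13%, against 23.9% of all tested genes), and DESeq2 gave the same counts. Psme4 was the lower one, with 592, 703, 685 and 791 CPM in tagged EtOH, against 1115, 927 and 879 CPM in untagged IAA libraries (-0.49, SE 0.11, edgeR FDR 0.0263). These groups did not overlap, so Psme4 stood lowest in tagged IAA, between in tagged EtOH and highest in untagged IAA cells. The call ended when 10E EtOH replicate 1, 11D EtOH replicate 1, or untagged IAA replicate 1 or 2 was left out. Tag, line and hormone differ together in this comparison and cannot be told apart.

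Factors that bind the proteasome but fall outside the naming rule included both higher and lower genes. Of 17 in the table, 5 rose and 6 fell in tagged IAA against tagged EtOH (30.2% and 29.3% of all tested genes). Their median was -0.10, beside 0.01 for all genes (with library totals 7 rose and 5 fell, with a median of 0.20). Among those that fell were shuttle factors, which carry ubiquitinated proteins to the 19S cap. Rad23b had 169, 207 and 195 CPM in tagged IAA, against 336 to 449 CPM in tagged EtOH (-1.14, SE 0.10), and Ubqln4 fell as well (-0.70, SE 0.10). Zfand2a, a stress-induced cofactor (1.10, SE 0.14), and Zfand5 (0.80, SE 0.11) rose, as did the adaptor Ecpas (0.62, SE 0.12). The ubiquitin receptor Adrm1 (-0.06), the small subunit Sem1 (0.15) and the core maturation factor Pomp (0.06) did not pass.

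Genes of the NRF1 route, which in mouse and human cells raises proteasome genes, gave 5 higher and 4 lower of 14. Of all tested genes, 30.2% were higher and 29.3% lower. The median of the route was 0.21 (8 higher and 1 lower with library totals). Nfe2l1 itself had 349, 368 and 373 CPM in tagged IAA, against 308 to 410 CPM in tagged EtOH libraries, and did not pass (0.06, SE 0.10). Mafk, a small partner of such factors, rose (1.34, SE 0.24), as did Sel1l (0.39, SE 0.09) and Ngly1 (0.93, SE 0.25), which act in the turnover and processing of NRF1. Nfe2l2, the related factor NRF2, fell (-0.67, SE 0.10), with Btrc (-0.53, SE 0.11) and Mafg (-0.46, SE 0.13). Of the 6 ubiquitin and E1 genes, 3 fell and 0 rose by edgeR (29.3% and 30.2% of all tested genes). Their median was -0.21, while with library totals 0 fell and 2 rose. Rps27a (-0.52) and Uba1 (-0.43) were among those that fell, while the polyubiquitin gene Ubb (0.01) did not pass.

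Antigen presentation genes that work with the immunoproteasome gave 9 higher of 12 and 0 lower by edgeR (30.2% and 29.3% of all tested genes). Their median was 1.10 (11 higher and 0 lower with library totals). Against untagged cells 9 of 11 tested were higher (29% of all tested genes). Tap1, a peptide transporter subunit, rose by 2.80 on the log2 scale (SE 0.18) and the class I gene H2-K1 by 2.52 (SE 0.20). B2m (0.37), Pdia3 (0.03) and Tap2 (-0.02) did not pass. The edgeR FDR was at most 2.4e-07 for Tap1 and H2-K1.

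In the authors' deposited table of IAA against EtOH, 47 members have an adjusted p-value, of which 4 are higher and 16 lower at under 0.05, against 18.8% higher and 17.8% lower of the 21210 genes with one. In the authors' deposited table Psmb5 stands at -0.98, Psmg1 at -1.02, Psmd10 at -1.09 and Psmb9 at 3.73 on the log2 scale.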

How the data were processed

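RNA-seq read counts per gene symbol were deposited by the authors as 1 table of whole numbers without normalization. STAR, deepTools and mm10 are named in the submitters' processing notes. The sources used here give no counter, annotation, strand setting or versions, so the 11 members whose exons overlap a gene on the other strand are uncertain to that extent. The authors' deposited comparison table holds, per the file headers, a base mean (a signal averaged over libraries), a log2 fold change with its standard error, a Wald statistic (a score), a p-value and an adjusted p-value, and it was used only for description. Of the 11 samples in the labels, 10 have a column in this table, and any further samples were not analysed here. Its columns name lines 10E, 11D and TIR1, which nothing ties to clone numbers. TIR1 was taken as the untagged line because it alone has an IAA replicate 3 and no EtOH column.

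Counts were tested with edgeR 4.0.16 in R 4.3.3 (quasi-likelihood F test, TMM factors, filterByExpr with a minimum count of 10 on the groups), with Benjamini-Hochberg adjustment over all genes tested and a threshold of 0.05. The 7 tagged libraries carried a term for line; the effect in each line, the interaction and 10E against 11D used 1 coefficient per line and treatment, and the untagged line was compared in a fit of all 10 libraries. SE was computed as |log2 fold change|/sqrt(F). CPM uses TMM over all 10 libraries, and levels between genes are per kilobase of union exon. Ratios of pooled counts were scaled by library totals without TMM factors. Intervals of pooled counts and the floor of 3 counts cover counting error only. The code was tested on simulated counts. Alternatives were library totals, RLE factors, no filter, DESeq2 1.42.0, a replicate block, other terms, and each library left out.

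The members, the lists and the tests were chosen with earlier results of these data known. Named with values in every library were the catalytic and immunoproteasome genes, Psma8, Psmb11, the activators and Psmf1, the 5 highest and 5 lowest called members, and the 3 highest and 3 lowest called of the other comparisons; lists name up to 3 called genes per direction by smallest FDR. Some genes that this rule names are not reported here. Other members were named after their values were seen. No replicate pair was close enough to be 1 library deposited again (chi-square over its degrees of freedom 2.84 to 25.5).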

Additional observations from a re-analysis of the deposited data

Results flagged for a closer look

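Among the 4 tagged EtOH libraries, Psmd10 stood at 10.2 CPM in 11D EtOH replicate 1, apart from the other 3 libraries, which held 12.2 to 12.6 CPM. The gap took up 0.847 of the group's range, above the 95% critical value of Dixon's test for 4 libraries. The check was made for 46 members, and chance gives such a gap in about 1 of 20 groups. The tagged IAA libraries held 4.65 to 6.69 CPM, below that value too.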

How the results depend on the processing

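Scaling by library totals put the members' median at 0.0457 (14 higher, 7 lower) for IAA against EtOH. It gave 0.0262 (6 higher, 3 lower) in 10E, 0.10 (12 higher, 6 lower) in 11D and 0.0347 (10 higher, 10 lower) against untagged cells. This scaling gave all genes a median of 0.30 for IAA against EtOH and 0.27 against untagged cells. It turned the sign of Psma1 (0.0207), Psma4 (0.0651), Psma6 (0.15), Psma7 (0.0383), Psmb2 (0.0306), Psmb7 (0.0639), Psmc2 (0.27), Psmc5 (0.23), Psmc6 (0.15), Psmd11 (0.0151), Psmd2 (0.16), Psmd5 (0.0482), Psmd7 (0.27), Psme1 (0.0431), Psmg3 (0.00583) and Psmg4 (0.22). With no filter on low counts the medians were -0.31 for IAA against EtOH, -0.42 in 10E (1 higher), -0.28 for the interaction and -0.30 against untagged cells, and Psma5 (-0.0529), Psmc3 (-0.0272), Psmc4 (-0.0441) and Psmg2 (-0.00537) turned. DESeq2 called 1 higher and 11 lower members in 10E. No line term turned Psma5 (-0.00606), Psmc3 (-0.00625), Psmc4 (-0.0526) and Psmd7 (0.00239), and fitting all libraries together turned Psmc4 (-0.0303). Among alternatives chosen after seeing the data, a filter on line and treatment groups gave 1 higher member in 10E and turned Psma5 (-0.0209) and Psmc4 (-0.0113). Leaving out 10E EtOH replicate 2 and 11D EtOH replicate 1, where the transcript CT010467.1 took 2.64% and 4.27% of counts, gave an 11D median of -0.24, 0 higher members between the lines by edgeR (14 of 46 at an unadjusted p under 0.05), and turned Psma5 (-0.0665) and Psmc3 (-0.000514). By the longest transcript, the highest core level over the lowest in tagged EtOH averaged 4.71, against 3.92. The main fit did not pair libraries by replicate number. Correlations of deviations between replicates were -0.21 to 0.265, the highest being that of 11D EtOH with 11D IAA. Line 10E, with 1 IAA library, could not be checked, so whether the numbers pair the libraries is not settled. The replicate block gave 19 lower and 4 higher members for IAA against EtOH, 16 lower against untagged cells, and turned Psmc2 (0.00491). Leaving out 1 library at a time gave 15 to 23 lower, 4 to 6 higher and a median of -0.29 to -0.19 for IAA against EtOH. It gave 8 to 18 lower, 1 to 2 higher and -0.35 to -0.28 in 10E, and 8 to 15 lower, 2 to 5 higher and -0.26 to -0.11 in 11D. It gave medians of -0.23 to -0.0858 for the interaction, 0 to 2 higher members and 0.0542 to 0.18 between the lines, and 19 to 24 lower, 3 to 6 higher and -0.29 to -0.22 against untagged cells. Tagged EtOH against untagged cells had 0 to 1 lower and -0.0530 to -0.00200. In 10E 8 fell without 10E EtOH replicate 2, and 1 rose without 10E EtOH replicate 1 or either 11D IAA library. In 11D 8 fell without 11D IAA replicate 1 and 2 rose without 11D IAA replicate 2. Against untagged cells 3 rose without 11D IAA replicate 2 or untagged IAA replicate 1 or 2. Without 10E IAA replicate 1 the 10E effect and the interaction have no value, and the comparison with untagged cells rests on 11D. The members that turned ranged as follows when 1 library was left out: Psma5 (-0.11 to 0.0707), Psmc2 (-0.13 to 0.0738), Psmc3 (-0.0169 to 0.11), Psmc4 (-0.0654 to 0.22), Psmc5 (-0.15 to 0.0565), Psmd7 (-0.10 to 0.13), Psme2 (-0.000516 to 0.17), Psmg2 (-0.0266 to 0.12), Psmg4 (-0.22 to 0.10). The cause of these turns was not tested. Depth limits Psmb8, Psmb11 and Psmb9, which held 13, 24 and 103 counts over the 3 tagged IAA libraries.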
